A study of Mus musculus with 12 samples.

Results

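The genes described here were 10 chaperones and folding enzymes of the endoplasmic reticulum (ER): Hspa5, Hsp90b1, Calr, Canx, Pdia3, Pdia4, Pdia6, Hyou1, Sdf2l1 and Manf. They were chosen by name. Of the 45281 probes on the array, 12 carried 1 of these gene symbols, and 7 of the 12, for 7 genes, were detected (detection p under 0.05) on 6 or more arrays out of 12 and were compared between groups, as were 15570 probes for 9034 genes in all. Canx, Hyou1 and Manf had no such probe. mRNA was measured in whole gastrocnemius, the large calf muscle, of 6 heat tolerant (TOL) and 6 heat intolerant (INT) mice, with 1 Illumina MouseWG-6 v2 array per mouse. All 12 were male C57BL/6J mice of 10 to 12 weeks that carried an implanted temperature transponder and went through 1 heat test in a chamber at 39.5 °C for at most 3 h. The TOL mice were those whose core temperature climbed more slowly and peaked lower during that test, and the INT mice those with the opposite profile, so the groups were set by a response of the same animals and not by a treatment. Muscle was taken 18 to 22 h after the test, and no muscle from unheated mice was analysed here.

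Proteins that enter the ER fold there with the help of the chaperone BiP, the product of Hspa5, the Hsp90 paralog encoded by Hsp90b1, the glycoprotein-binding lectins calreticulin (Calr) and calnexin (Canx), and the protein disulfide isomerases. When unfolded proteins build up, the sensors IRE1, PERK and ATF6 switch on the unfolded protein response, which raises transcription of these same chaperones through short promoter sequences and, through ATF4 and CHOP, a set of metabolic and apoptotic genes. In skeletal muscle most of the ER is the sarcoplasmic reticulum, the calcium store of the fibre, and calreticulin is also a calcium-binding protein.

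The sequence that ATF6 and the factor NF-Y are known to bind together, the ER stress response element, is made of a pair of short boxes (CCAAT, then 9 bases of any kind, then CCACG). It was searched on both strands of RefSeq promoter windows (GRCm38.p6) that run from 250 bases before to 50 bases after each annotated start. Windows were present for 8 of the 10 genes, and Hyou1 and Manf were not among them. The element was in 5 of these 8 windows (Hspa5, Hsp90b1, Calr, Canx and Pdia6) and in 39 of 32851 windows of all genes (0.119%). The genes were chosen by name and are known targets of the unfolded protein response, so this count describes the windows and is not a test. The 6 sites are shown because 5 of the 8 windows hold this element, which is rare among all windows. Both boxes are in capitals, and each site is written 5′ to 3′ on the strand on which it reads forward.
Hspa5, chr2:34772025-34772043, gene strand: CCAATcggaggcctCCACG
Hsp90b1, chr10:86705638-86705656, gene strand: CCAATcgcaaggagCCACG
Hsp90b1, chr10:86705533-86705551, opposite strand: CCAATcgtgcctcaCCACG
Calr, chr8:84847075-84847093, opposite strand: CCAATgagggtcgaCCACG
Canx, chr11:50325800-50325818, gene strand: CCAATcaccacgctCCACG
Pdia6, chr12:17266491-17266509, gene strand: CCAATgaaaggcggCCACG

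The 9 bases between the boxes differed at each site. The Hspa5 site lay nearest to its start, from 65 to 47 bases before it, and the first Hsp90b1 site farthest, from 212 to 194 bases before it. Hsp90b1 was the one gene with 2 sites, on opposite strands. No match to the element was found in the windows of Pdia3, Pdia4 or Sdf2l1. The CCAAT box itself was in all 8 windows, against 37.4% of all windows, and CCACG in 7 of 8, against 32.8%. These counts include the copies inside the elements, and the window without CCACG was that of Pdia3. The shorter element of ATTGG, any base and CCACG (0.0365% of all windows), the unfolded protein response element TGACGTGG (0.676%), the amino acid response core TTGCATCA (0.895%) and the heat shock element of GAA, TTC and GAA with 2 bases of any kind between each (0.603%) were each in 0 of the 8. Whole windows are shown for Hspa5 and Hsp90b1, whose levels varied together across the mice, and for Calr, the gene with the largest difference between the labels. Capitals mark the boxes of the element, and on the gene strand an element that reads on the opposite strand appears as CGTGG followed by ATTGG.
Hspa5, chr2:34771840-34772139, plus strand: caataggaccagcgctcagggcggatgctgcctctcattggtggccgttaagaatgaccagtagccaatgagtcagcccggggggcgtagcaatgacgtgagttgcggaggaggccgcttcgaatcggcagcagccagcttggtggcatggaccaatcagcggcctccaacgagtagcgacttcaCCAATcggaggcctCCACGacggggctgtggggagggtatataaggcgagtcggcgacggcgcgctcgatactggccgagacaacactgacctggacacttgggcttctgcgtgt
Hsp90b1, chr10:86705395-86705694, minus strand: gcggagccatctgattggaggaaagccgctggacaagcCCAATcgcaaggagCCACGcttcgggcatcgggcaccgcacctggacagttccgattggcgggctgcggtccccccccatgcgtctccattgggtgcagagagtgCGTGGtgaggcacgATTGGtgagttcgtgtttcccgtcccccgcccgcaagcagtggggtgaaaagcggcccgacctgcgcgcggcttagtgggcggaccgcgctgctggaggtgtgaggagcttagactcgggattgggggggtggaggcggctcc
Calr, chr8:84846882-84847181, minus strand: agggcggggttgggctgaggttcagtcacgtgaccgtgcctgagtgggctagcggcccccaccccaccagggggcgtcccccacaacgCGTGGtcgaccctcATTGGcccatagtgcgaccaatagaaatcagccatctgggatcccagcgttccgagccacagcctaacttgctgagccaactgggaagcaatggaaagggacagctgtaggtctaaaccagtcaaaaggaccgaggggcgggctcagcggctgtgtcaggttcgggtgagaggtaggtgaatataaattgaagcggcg

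**Figure D1:**
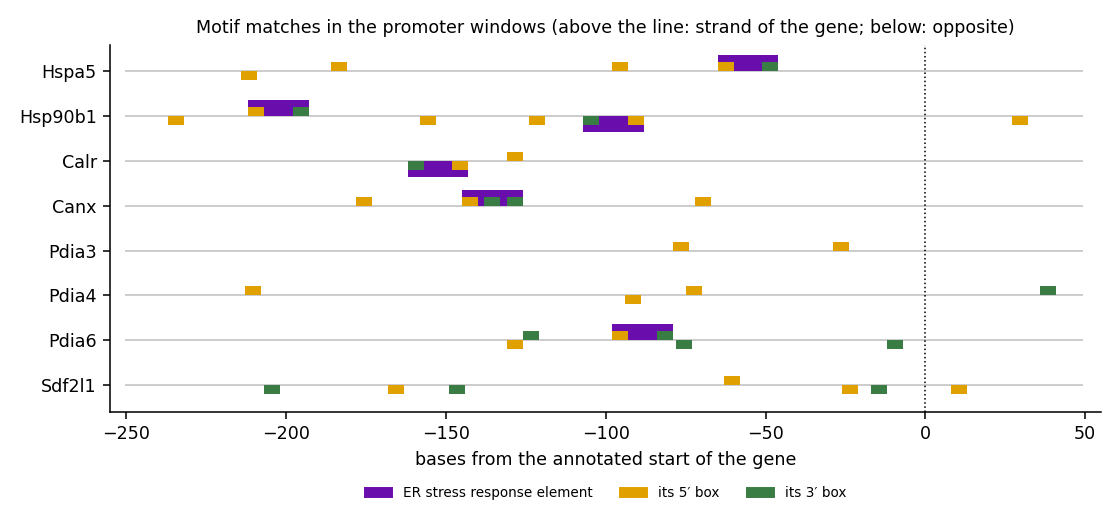
Each row is the promoter window of 1 chaperone gene, with bases from the annotated start on the horizontal axis, and blocks above or below the line mark matches on the strand of the gene or on the opposite strand. The full element appears in the rows of Hspa5, Hsp90b1 (2 sites), Calr, Canx and Pdia6, and the rows of Pdia3, Pdia4 and Sdf2l1 hold single boxes of the element only.

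The arrays were alike in median raw signal but not in their bright probes. The median raw signal was 71.5 to 74.0 in TOL and 72.9 to 73.8 in INT mice, and 15179 to 16769 probes were detected in TOL and 15337 to 17017 in INT mice. The 95th percentile of raw signal was 303, 273.8, 275 and 290.8 in TOL mice 4, 7, 9 and 11, below every INT mouse (308.5 to 334.4). It was 318 and 333 in TOL mice 3 and 5. The brightest signal did not overlap between the labels (14644.5 to 15962.6 in TOL, 16465.3 to 18956.7 in INT), and which mice shared a chip is not stated. TOL mouse 11 had the lowest mean correlation with the other arrays (0.973, next INT mouse 3 at 0.981), and many values that it moved are also given without it. The tissue label fitted its markers: Ckm, Acta1 and the other muscle fibre markers (6 of 6 tested) summed to 66190 to 70370 in TOL and 64550 to 69250 in INT mice. Markers of slow fibres averaged lower in TOL in 7 of 7 genes (median -0.76 on the log2 scale, 6 of them at a nominal, that is unadjusted, p up to 0.05 in limma, beside 8.41% of all genes, and 0 after adjustment). Their exact permutation p ran from 0.0671 to 0.255. The median was -0.61 without TOL mouse 11, with 7 of 7 still lower.

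Levels are background-corrected, quantile-normalized log2 intensities with 16 added before the log, so that a probe at background lies just above 4 and differences of dim probes are compressed. Levels of different probes are not set against each other. In bulk muscle, fewer cells of a type cannot be told apart from less RNA per cell.

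Of the 7 chaperones tested, 0 differed between TOL and INT mice at an adjusted p under 0.05 (limma, Benjamini-Hochberg over all probes), where 0.542% of all 9034 genes did (49 genes). At a nominal p up to 0.05, 1 of 7 was called, Calr, which averaged lower in TOL, against 8.41% of all genes in either direction (4.53% lower and 3.89% higher in TOL). No chaperone had groups that did not overlap, against 0.708% of all genes. By estimate, 4 of the 7 averaged higher and 3 lower in TOL, with a median difference of 0.0013 on the log2 scale, beside -0.0033 over all genes. Without TOL mouse 11, 3 averaged higher and 4 lower, with a median of -0.0413. Pdia4 and Pdia6 lay near 0 and their signs turned under other settings, so that 5 averaged higher with median scaling of the arrays and 3 without background correction.

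Among the BiP machinery, Hspa5 itself was close to background. Its log2 level was 4.38, 4.24, 4.46, 4.64, 4.55 and 4.94 in TOL mice 3, 4, 5, 7, 9 and 11, against 4.71, 4.31, 4.44, 4.38, 4.53 and 4.30 in INT mice of the same numbers. TOL mouse 11 and INT mouse 3 were the highest of their groups, the groups overlapped, and the probe was not detected in TOL mouse 4 and INT mouse 11. The raw signal was 73.2 to 83.0 in TOL and 75.1 to 81.3 in INT mice. The mean was 4.54 ± 0.24 in TOL and 4.45 ± 0.16 in INT mice (SD over 6 mice each), a difference of 0.09 (SE 0.10, 95% confidence interval -0.13 to 0.31, adjusted p = 0.828), which was within the spread between mice. It was 0.01 without TOL mouse 11.

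Hsp90b1, the ER paralog of Hsp90 that folds integrins and Toll-like receptors, was well above background on all 12 arrays, with a raw signal of 206.6 to 313.6 in TOL and 223.3 to 317.8 in INT mice. Its log2 level was 7.91, 7.30, 7.76, 7.64, 7.56 and 8.11 in TOL mice 3, 4, 5, 7, 9 and 11, against 8.05, 7.41, 7.66, 7.47, 7.80 and 7.31 in the INT mice. As for Hspa5, TOL mouse 11 and INT mouse 3 stood highest, and each group covered nearly the same range. The means were 7.71 ± 0.28 in TOL and 7.62 ± 0.28 in INT mice, and the difference was 0.10 (SE 0.14, interval -0.21 to 0.40, adjusted p = 0.878), or 0.02 without TOL mouse 11.

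Sdf2l1, a small protein found in complexes with BiP, was detected in 6 TOL and 3 INT mice. Its level was 4.32, 4.35, 4.31, 4.33, 4.56 and 4.59 in TOL mice 3, 4, 5, 7, 9 and 11, against 4.40, 4.27, 4.43, 4.27, 4.50 and 4.30 in the INT mice. TOL mice 9 and 11 were highest, with the other 4 TOL mice inside the INT range. The difference was 0.05 (SE 0.07, interval -0.09 to 0.19, adjusted p = 0.868), or 0.01 without TOL mouse 11. Hyou1, a nucleotide exchange factor of BiP, was detected on 0 arrays, at 4.13 to 4.26 in TOL and 4.14 to 4.27 in INT mice. Manf, a secreted ER stress protein that binds BiP, was detected in TOL mouse 7 only, at 4.21 to 4.34 in TOL and 4.12 to 4.28 in INT mice. Neither was well above background in either group, and no fold is given.

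The 2 largest differences were in calreticulin and its partner Pdia3, both lower in TOL by estimate. Calreticulin mRNA (Calr) had a log2 level of 5.28, 5.17, 5.32, 5.11, 4.81 and 4.48 in TOL mice 3, 4, 5, 7, 9 and 11, against 5.20, 5.27, 5.78, 5.80, 5.54 and 5.47 in the INT mice. All 6 TOL mice lay below the INT mean, 4 of them below every INT mouse, and 4 INT mice lay above every TOL mouse, so the groups overlapped in TOL mice 3 and 5 and INT mice 3 and 4. The raw signal of 76.2 to 99.2 in TOL and 91.4 to 115.8 in INT mice was modest on all arrays, although the probe was detected on all 12. The mean was 5.03 ± 0.32 in TOL and 5.51 ± 0.25 in INT mice. The level was 1.39-fold lower in TOL, a log2 difference of -0.48 (SE 0.15, interval -0.79 to -0.17). The nominal p was 0.00454 and the adjusted p 0.215 in limma, and an exact two-sided permutation test of the 924 splits of the mice gave p = 0.0152 (0.359 adjusted over all probes). Without TOL mouse 11, the lowest of all, the difference was -0.37 with a nominal p of 0.00986 and an adjusted p of 0.349. A second Calr probe was detected on 0 arrays.

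Pdia3, the disulfide isomerase that works with calreticulin and calnexin on glycoproteins, was detected on all arrays. Its level was 7.17, 6.38, 6.73, 6.89, 5.92 and 6.52 in TOL mice 3, 4, 5, 7, 9 and 11, against 7.13, 7.04, 6.67, 7.09, 6.64 and 7.24 in the INT mice. TOL mouse 9 was the lowest, TOL mice 4 and 11 also lay below every INT mouse, and TOL mouse 3 was above 5 of the 6 INT mice. The means were 6.60 ± 0.44 in TOL and 6.97 ± 0.25 in INT mice, 1.29-fold lower in TOL (log2 difference -0.37, SE 0.18, interval -0.74 to 0.005, nominal p = 0.0529, adjusted p = 0.514, exact permutation p = 0.0996). The difference was -0.23 without TOL mouse 9, with an adjusted p of 0.757, and -0.48 without TOL mouse 3. Canx, the membrane-bound lectin, was detected on 0 arrays, at 4.10 to 4.22 in TOL and 4.11 to 4.18 in INT mice, and gave no fold.

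The other disulfide isomerases differed by less than the spread between mice. Pdia4 had a level of 4.89, 4.90, 4.82, 4.97, 4.79 and 5.13 in TOL mice 3, 4, 5, 7, 9 and 11, against 4.99, 4.89, 5.15, 4.81, 4.94 and 4.71 in the INT mice. The means were 4.92 ± 0.12 in TOL and 4.92 ± 0.15 in INT mice, and the interval of their difference ran from -0.18 to 0.18 (adjusted p = 0.997). Pdia6, an isomerase that binds BiP, was at 4.33 to 4.68 in TOL and 4.38 to 4.71 in INT mice, with a difference of -0.01 (interval -0.16 to 0.14, adjusted p = 0.981). INT mouse 7 at 4.71 and TOL mouse 11 at 4.68 stood above the rest. The differences without that TOL mouse were -0.04 for Pdia4 and -0.05 for Pdia6. A second Pdia6 probe was detected in 3 TOL and 2 INT mice and averaged 4.32 in TOL and 4.30 in INT mice.

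**Figure D2:**
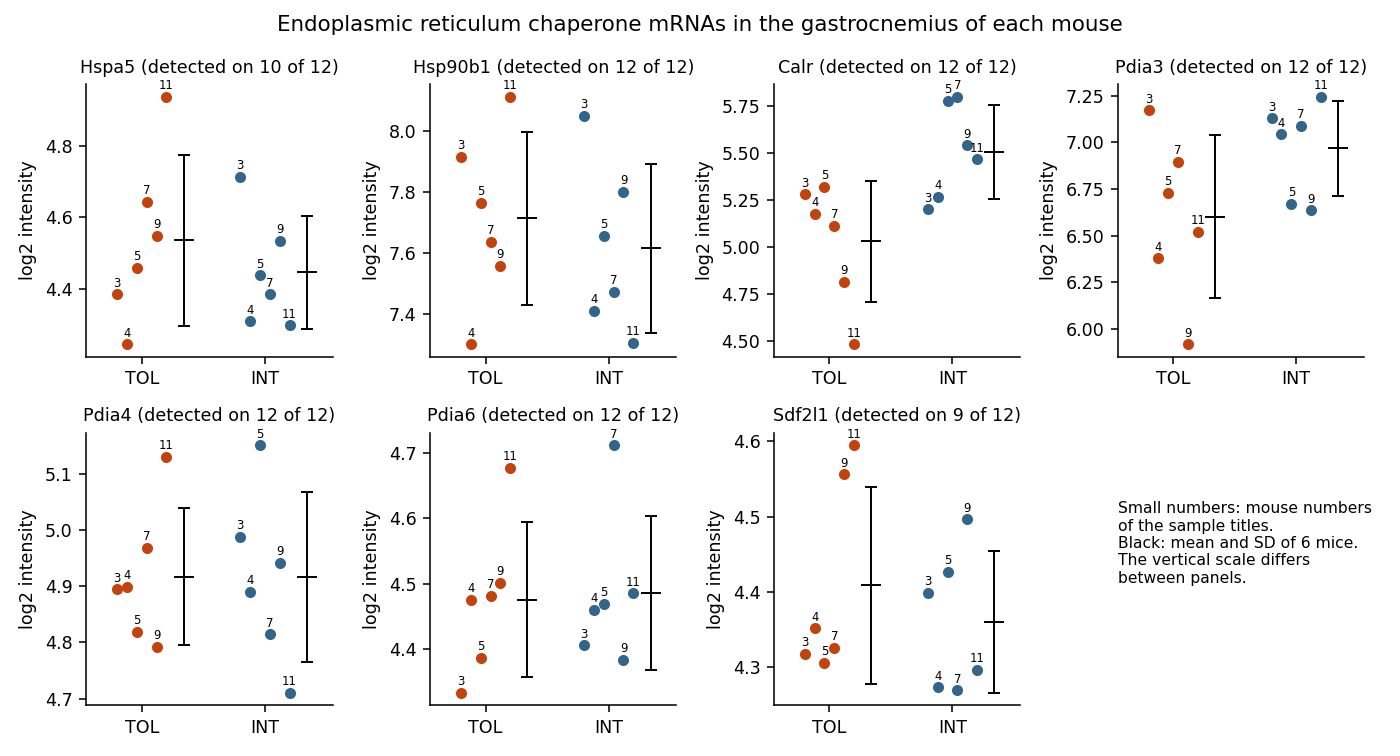
Points give the log2 intensity of each tested chaperone in each mouse (TOL left, INT right, mouse numbers beside the points), and black marks give the mean and SD of 6 mice. The vertical scale differs between panels, and Calr is the panel in which 4 TOL mice lie below all INT mice.

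**Figure D3:**
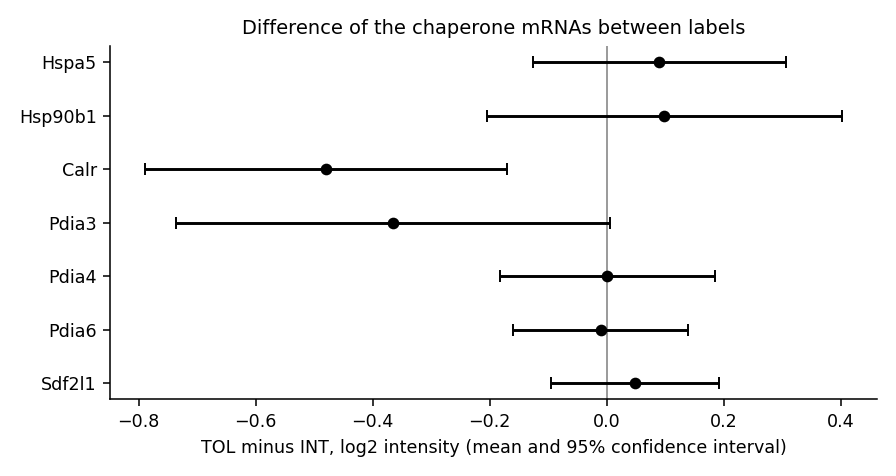
Points give the difference in mean log2 intensity, TOL minus INT, with its 95% confidence interval, for the 7 tested chaperones. The interval of Calr (-0.79 to -0.17) leaves out 0 before adjustment for the number of genes, that of Pdia3 reaches 0.005, and the other 5 span 0.

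The chaperones differed in how much they varied between mice of 1 label. The SD within labels was 0.36 for Pdia3, 0.29 for Calr and 0.28 for Hsp90b1, above the SD of 94.4%, 88.7% and 87.3% of all genes, for which the median was 0.17 and the middle 50% of genes ran from 0.14 to 0.23. Hspa5 was at 0.20. Pdia4 (0.14), Pdia6 (0.12) and Sdf2l1 (0.11) lay below the median of all genes. From the lowest to the highest of the 12 mice, Pdia3 spanned 2.51-fold and Calr 2.50-fold, Hsp90b1 1.75-fold, Hspa5 1.62-fold and Sdf2l1 1.25-fold. These values are those with 16 added before the log, which draws the SD of dim probes in.

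The 7 chaperones did not vary as 1 block. Of their 21 pairs, 11 had a positive and 10 a negative Pearson correlation over the 12 mice, with a median r of 0.03, or 0.11 after the mean of each label was removed. The median r was 0.31 within the TOL and -0.22 within the INT mice, and 10 of 21 pairs had the same sign in both. Without TOL mouse 11 the median over all pairs was -0.01. In a permutation test of each chaperone against all other genes (100000 resamples, two-sided), 0 pairs passed at an adjusted p under 0.05, and 4 positive and 3 negative pairs had a nominal p up to 0.05. At that threshold 4.95% of all genes were positive and 5.31% negative for Hspa5, 4.41% and 4.27% for Hsp90b1, 7.02% and 6.4% for Calr, 5.05% and 4.65% for Pdia3, 2.14% and 2.65% for Pdia4, 3.58% and 6.3% for Pdia6, and 5.97% and 6.69% for Sdf2l1. The pairs share genes and arrays and are not independent of each other.

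Hspa5 and Hsp90b1 formed the closest pair. Their r was 0.802 over the 12 mice (permutation p = 0.00125, adjusted p = 0.412 over all genes), rho was 0.771 (p = 0.00431, adjusted p = 0.724), and r was 0.694 in TOL and 0.987 in INT mice. Both mRNAs were highest in TOL mouse 11 and INT mouse 3 and low in TOL mouse 4 and INT mice 4 and 11. In both, INT mice 3, 5 and 9 all lay above INT mice 4, 7 and 11, as they did in Sdf2l1 and Pdia4. The TOL mice of these numbers did not split that way in any of these genes. Calr, Pdia3 and Pdia6 did not split so in INT mice. Outside the members, Xbp1 and Serpina3n did, and the share of all genes that did was not counted. The part of this split in the r of INT mice was not tested. Without TOL mouse 11 and INT mouse 3, the 2 farthest from the median of Hspa5, r was 0.577. Sdf2l1 also varied with Hspa5 (r = 0.689, permutation p = 0.0122, adjusted p = 0.415, rho = 0.645, permutation p = 0.0255), with r near 0.67 in both labels (0.677 in TOL, 0.659 in INT) and 0.502 without the same 2 mice.

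Pdia4 had an r of 0.581 with Hspa5 (permutation p = 0.0487, adjusted p = 0.483) and 0.582 with Hsp90b1 (permutation p = 0.0471, adjusted p = 0.573). The rho were 0.501 (permutation p = 0.0992) and 0.580 (permutation p = 0.0513). Without TOL mouse 11 and INT mouse 3, the r were 0.266 and 0.357. Without TOL mouse 11 and INT mouse 5, the mice farthest from the median of Pdia4, they were 0.542 and 0.572. How far both rested on single mice thus depended on the mice left out.

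Calr ran the other way. Its r was -0.622 with Hspa5 (permutation p = 0.0318, adjusted p = 0.461, rho = -0.452 with permutation p = 0.139) and -0.578 with Sdf2l1 (permutation p = 0.0489, adjusted p = 0.368, rho = -0.490 with permutation p = 0.108). Within labels these were -0.819 and -0.955 in TOL mice, and -0.305 and 0.0646 in INT mice. Without TOL mouse 11, which had the lowest Calr and the highest Hspa5 and Sdf2l1, they were -0.286 and -0.302 over the other 11 mice. Calr and Pdia6 had an r of -0.930 in TOL and 0.604 in INT mice, and the difference between the labels was not tested.

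Pdia3 and Sdf2l1 were the negative pair that did not rest on that mouse. Their r was -0.710 (permutation p = 0.00941, adjusted p = 0.377, rho = -0.692 with permutation p = 0.0151), with -0.675 in TOL and -0.786 in INT mice, and -0.742 without TOL mouse 11. Without TOL mice 4 and 9, the 2 farthest from the median of Pdia3, r was -0.748. It was -0.491 without TOL mice 9 and 11, the 2 farthest from the median of Sdf2l1, and -0.592 without TOL mouse 9. Calr and Pdia3, the partners in glycoprotein folding that both averaged lower in TOL mice, had an r of 0.471 (permutation p = 0.122, rho = 0.427 with permutation p = 0.163). It was 0.515 in TOL and -0.426 in INT mice, and 0.220 with label means removed.

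**Figure D4:**
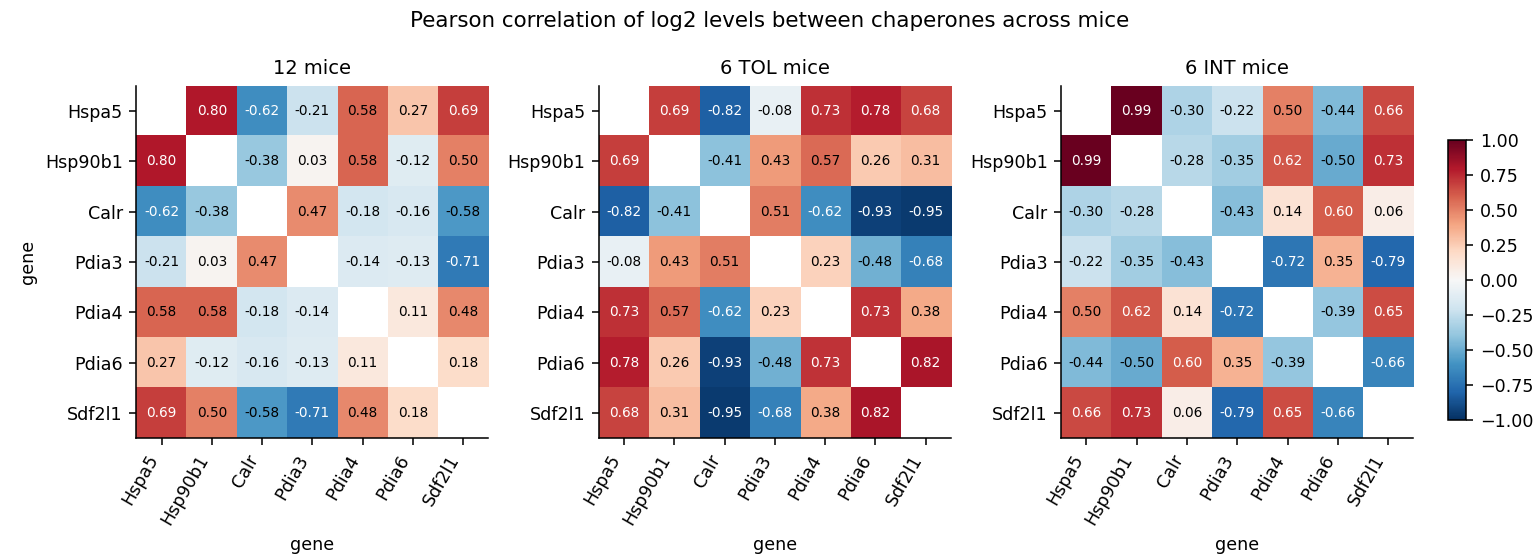
Cells give Pearson's r of log2 levels for each pair of chaperones, over the 12 mice, the 6 TOL mice and the 6 INT mice. Hspa5 with Hsp90b1, Pdia4 and Sdf2l1 is positive in all 3 panels and Pdia3 with Sdf2l1 negative in all 3, while Pdia6 with Calr is -0.93 in TOL and 0.60 in INT mice.

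The genes whose levels were most like each chaperone were ranked by r with label means removed, among 9033 other genes. For Hspa5 the first were Lsm4, a subunit of a ring that binds U6 RNA (r with labels removed 0.919), and Trib3, the pseudokinase that CHOP and ATF4 induce (0.917), followed by Cep57l1, Slc1a6, Atp2c1, Arpp19, Wbp1l, Mterf1b, Wasf2 and Myo5a (0.901 to 0.846). Trib3 had a log2 level of 4.52, 4.40, 4.57, 4.65, 4.71 and 5.20 in TOL mice 3, 4, 5, 7, 9 and 11, against 4.85, 4.23, 4.56, 4.54, 4.47 and 4.46 in the INT mice. Trib3 thus lay close to background in most mice. So did Cep57l1 (4.50 to 5.07 over the 12 mice), Slc1a6 (4.19 to 4.68), Atp2c1 (4.49 to 4.97) and Myo5a (4.30 to 5.07). The other genes named lay higher, with Lsm4 at 9.54 to 10.19. Like Hspa5, Trib3 was highest in TOL mouse 11 and INT mouse 3. Over the 12 mice r was 0.919 (permutation p = 0.0001, adjusted p = 0.271 over all genes) and rho 0.900 (permutation p = 0.00018, adjusted p = 0.488), with 0.960 in TOL and 0.830 in INT mice, 0.829 without TOL mouse 11 and 0.729 without that mouse and INT mouse 3. Hspa5 had no correlation with any gene at an adjusted p under 0.05 (0.0% of 9033 genes).

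The level of Hspa5 also followed a measure of the arrays. Its r with the mean correlation of an array with the other arrays was -0.917 (permutation p = 1e-05, the smallest the resamples can give, adjusted p = 0.00175 over 175 relations with array measures, marker lists and named genes), and rho was -0.909 (permutation p = 0.0001, adjusted p = 0.00875). The r was -0.923 in TOL and -0.970 in INT mice, -0.894 without TOL mouse 11 and -0.833 without that mouse and INT mouse 3. For the same measure the r was -0.661 for Hsp90b1 (permutation p = 0.00716, adjusted p = 0.136, rho = -0.544 with permutation p = 0.0703) and -0.721 for Sdf2l1 (permutation p = 0.00575, adjusted p = 0.136, rho = -0.674 with permutation p = 0.0190). It was 0.719 for Calr (permutation p = 0.0114, adjusted p = 0.170, rho = 0.467 with permutation p = 0.126), or 0.366 without TOL mouse 11. The number of detected probes also ran against Sdf2l1 (r = -0.763, permutation p = 0.00465, adjusted p = 0.136, rho = -0.811 with permutation p = 0.00246), with r of -0.854 in TOL and -0.635 in INT mice and -0.655 without TOL mouse 11. Its r with Hspa5 was -0.679 (permutation p = 0.0136, adjusted p = 0.170, rho = -0.539 with permutation p = 0.0712), or -0.502 without TOL mouse 11. The mean correlation of an array is computed from all tested probes, and the share of all genes that followed it was not counted. What these array measures reflect, and their part in the co-variation of these genes, was not tested.

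Hsp90b1 was most like Igfbp3, an insulin-like growth factor binding protein (r with labels removed 0.884), Serpina3n, an acute-phase protease inhibitor (0.882), and Eif1a, a translation initiation factor (0.863). Over the 12 mice the r of Serpina3n was 0.881 (permutation p = 0.00018, adjusted p = 0.496), with a rho of 0.846 (permutation p = 0.00088). Tenocyte markers ran against both Hsp90b1 and Hspa5. Scx, Fmod and Comp, the 3 of 5 listed markers that were tested (Tnmd and Thbs4 had no tested probe), summed to 197.2 to 356.2 in TOL and 204.7 to 482.5 in INT mice on the linear scale. Their mean log2 level had an r of -0.813 with Hsp90b1 (permutation p = 0.00086, adjusted p = 0.0502 over 175 relations, rho = -0.902 with adjusted p = 0.00875) and -0.778 with Hspa5 (permutation p = 0.00329, adjusted p = 0.134, rho = -0.834 with adjusted p = 0.0512). For Hsp90b1 the r was -0.888 in TOL and -0.787 in INT mice, and -0.688 without TOL mouse 11 and INT mouse 3. The mean of the Schwann cell markers Mbp and Sox10, the 2 of 4 listed that were tested (summed to 125.5 to 528.2 in TOL and 122.6 to 484.8 in INT mice), also ran against both. Its r was -0.649 with Hsp90b1 (permutation p = 0.0242, adjusted p = 0.249, rho = -0.713 with permutation p = 0.0114), with -0.747 in TOL and -0.628 in INT mice. With Hspa5 it was -0.583 (permutation p = 0.0442, adjusted p = 0.335, rho = -0.627 with permutation p = 0.0313), with -0.670 in TOL and -0.603 in INT mice. The part of tendon or nerve in a muscle piece was not tested.

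Calr was the one chaperone with correlations that passed over all genes, with 2 of 9033 (0.0221%) at an adjusted p under 0.05. They were Cbx3, a heterochromatin protein of the HP1 family (r = 0.948), and Zdhhc4, a palmitoyltransferase (r = -0.948), which was named after its values were seen. Cbx3 had a log2 level of 6.60, 6.72, 6.80, 6.64, 6.22 and 5.82 in TOL mice 3, 4, 5, 7, 9 and 11, against 6.80, 7.20, 7.75, 7.44, 7.50 and 7.11 in the INT mice. As with Calr, TOL mice 11 and 9 were the lowest and INT mice 5, 7 and 9 the highest. The permutation p was 1e-05 for both genes, the smallest the resamples can give, and the adjusted p 0.0452, while the adjusted p of rho was 0.212 for Cbx3 (rho = 0.874) and 0.146 for Zdhhc4 (rho = -0.916). The adjustment was made for each chaperone apart and not over the 7 chaperones, and the adjusted p of r rests on that smallest value. The r of Cbx3 was 0.973 in TOL and 0.846 in INT mice, 0.919 with label means removed, 0.918 without TOL mouse 11 and 0.927 without that mouse and INT mouse 7. Cbx3 itself averaged 0.83 lower in TOL than in INT mice on the log2 scale (SE 0.18, adjusted p = 0.0297), and Zdhhc4 averaged 0.30 higher (SE 0.11, adjusted p = 0.347).

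The next most like Calr with label means removed were Camk2g, a calcium- and calmodulin-dependent kinase (0.916), and Pdap1, a growth factor-associated phosphoprotein (0.897). Pdap1 had a level of 9.84, 9.30, 9.50, 9.32, 8.90 and 8.84 in TOL mice 3, 4, 5, 7, 9 and 11, against 9.27, 9.56, 9.91, 9.86, 9.66 and 9.61 in the INT mice, again lowest in TOL mice 11 and 9. Over the 12 mice its r with Calr was 0.921 (permutation p = 5e-05, adjusted p = 0.0602) and its rho 0.909 (permutation p = 0.00016). That of Camk2g was 0.480 (permutation p = 0.114) and its rho 0.280 (permutation p = 0.371). Calr had an r of 0.719 with the median raw signal of the array (permutation p = 0.00777, adjusted p = 0.136 over 175 relations) and a rho of 0.784 (permutation p = 0.00358). With the number of detected probes r was 0.674 (permutation p = 0.0150, rho = 0.636 with permutation p = 0.0287), or 0.504 without TOL mouse 11, and with the brightest signal, which did not overlap between the labels, 0.616 (permutation p = 0.0310, rho = 0.650 with permutation p = 0.0255). TOL mice 4, 7, 9 and 11, whose Calr lay below every INT mouse, also had a 95th percentile of raw signal below every INT mouse. The part of these measures in the lower Calr of TOL mice was not tested.

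**Figure D5:**
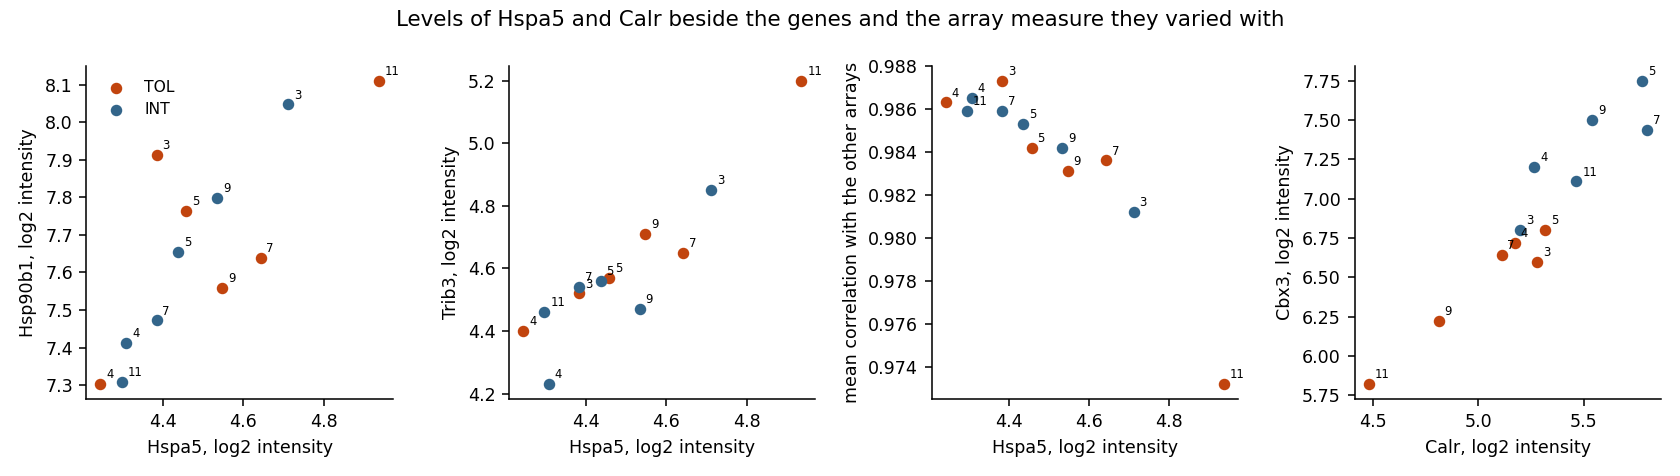
Points are single mice (TOL and INT, mouse numbers beside them), with log2 intensities on the axes except in the third panel, whose vertical axis is the mean correlation of the array with the other 11. From left to right, Hspa5 is plotted against Hsp90b1 (r = 0.802), Trib3 (r = 0.919) and the array measure (r = -0.917), and Calr against Cbx3 (r = 0.948).

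Among the other chaperones, Pdia3 was most like Rab8b, a GTPase of vesicle transport (labels removed 0.915, and 0.934 over the 12 mice with adjusted p = 0.181), Nid1, a basement membrane protein (0.886), and Lrrfip1 (0.876). Over the 12 mice the r of Nid1 and Lrrfip1 were 0.753 and 0.864 (permutation test, adjusted p = 0.327 and 0.240). Pdia4 was most like Irak2, Srek1ip1 and Fgg (0.839 to 0.827, adjusted p = 0.910 each over the 12 mice). Pdia6 was most like Myoz1, a Z-disc protein (0.908), Asap2 (0.907) and Lrrc52 (0.891). Over the 12 mice these r were 0.676, 0.864 and 0.868 (permutation test, adjusted p = 0.42, 0.42 and 0.28). Without TOL mouse 11 and INT mouse 7 they were 0.440, 0.460 and 0.581. Sdf2l1 was most like Lrg1, a secreted leucine-rich glycoprotein (0.921), Timm23, a subunit of the mitochondrial import channel (0.917), and Fkbp5, a glucocorticoid-induced immunophilin (0.907), each with an adjusted p of 0.195 over the 12 mice. The Sdf2l1 partners Lrg1 and Fkbp5 reached 8.30 and 8.12 in the highest TOL mouse, against medians of 7.29 and 5.65 in TOL and 7.39 and 6.13 in INT mice. Fgg (4.13 to 4.58), Asap2 (4.19 to 4.67) and Timm23 (4.27 to 4.60) lay close to background.

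The rest of the ER folding pathway was read from 8 lists, with 83 of 111 genes tested. None passed at an adjusted p under 0.05, and 1 higher and 1 lower gene in TOL had a nominal p up to 0.05, which was 2.41% of the 83 genes beside 8.41% of all genes. In total 48 averaged higher and 35 lower, with a median of 0.01 on the log2 scale, and without TOL mouse 11 the counts were 42 and 41. Of the cofactors of BiP, 8 of 11 were tested, 5 higher and 3 lower, with Sil1, an exchange factor, at 0.22 (SE 0.13, adjusted p = 0.621), Dnajc3 at -0.17 and Dnajb9 at 0.17. Sil1 was at 0.12 and Dnajb9 at 0.05 without TOL mouse 11. Of the further disulfide enzymes, 9 of 18 were tested, 5 higher and 4 lower, among them Selenof at 0.22 and P4hb, the founding protein disulfide isomerase, at 0.06.

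Of the glycoprotein lectin cycle, 9 of 11 genes were tested, 1 higher (Uggt2, 0.11) and 8 lower, with a median of -0.08 and no gene at a nominal p up to 0.05. The lower genes included the glucosidase subunits Prkcsh (-0.10) and Ganab (-0.08) and the mannosidase Man1b1 (-0.10). Without TOL mouse 11, 2 genes of the list were higher and 7 lower. Calr and Pdia3 are not in that list. Of the degradation pathway, 13 of 19 were tested, 7 higher and 6 lower (5 and 8 with median scaling), and the ubiquitin ligase Syvn1 was at -0.30 (SE 0.12, nominal p = 0.0291, adjusted p = 0.436, exact permutation p = 0.0476), with 7.67 to 8.20 in TOL and 8.02 to 8.69 in INT mice. Of the translocon and signal peptidase, 14 of 15 were tested, 9 higher and 5 lower (7 and 7 with median scaling, 6 and 8 without TOL mouse 11), with Ssr1 at 0.12 (0.07 without that mouse) and Ssr4 at 0.11. Of the collagen folding genes, 10 of 11 were tested, 6 higher and 4 lower (4 and 6 without TOL mouse 11), and the lysyl hydroxylase Plod1 was at 0.26 (SE 0.11, nominal p = 0.0324, adjusted p = 0.451, exact permutation p = 0.0563). The collagen chaperone Serpinh1 was at 0.39, or 0.03 without TOL mouse 11, where it was 11.59 beside a TOL median of 9.42 and an INT median of 9.45.

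No sensor or factor of the unfolded protein response reached a nominal p of 0.05. Of 12 genes 9 were tested, 6 higher and 3 lower, with a median of 0.04, Xbp1 at -0.16 (SE 0.14, adjusted p = 0.757) and Atf4 at 0.09 (0.05 without TOL mouse 11). The counts without that mouse were 5 and 4. Of the ATF4 and CHOP targets, 11 of 14 were tested, 9 higher and 2 lower, with a median of 0.20 and no gene at a nominal p up to 0.05. Atf3 was at 0.61 (adjusted p = 0.634), Asns at 0.32, Psat1 at 0.21 and Trib3 at 0.16. TOL mouse 11 was far above the other TOL mice in Atf3 (7.27, TOL median 4.62, INT median 4.35) and Asns (6.32, TOL median 4.85, INT median 4.72). Without that mouse 7 of the 11 targets averaged higher and 4 lower, with a median of 0.06, and the differences were 0.17 for Atf3, 0.06 for Asns, 0.09 for Psat1 and 0.06 for Trib3. Neither Xbp1 nor Atf4 had an r with any of the 7 chaperones at a nominal p up to 0.05, the closest being Pdia4 with Xbp1 (r = 0.574, permutation p = 0.0508), for which the rho of 0.636 had a permutation p of 0.0278. P4hb had an r of -0.733 with Pdia3 (permutation p = 0.00633, adjusted p = 0.136 over 175 relations, rho = -0.692 with permutation p = 0.0156), -0.637 in TOL and -0.945 in INT mice.

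The cytosolic counterparts of these chaperones ranged widely between TOL mice, and 0 of 9 tested genes passed at an adjusted p under 0.05. Hspa1a, the inducible Hsp70, was 10.04, 8.88 and 12.41 in TOL mice 4, 7 and 11, and 5.23, 4.68 and 5.29 in TOL mice 3, 5 and 9. The TOL median of 7.09 lay between these sets, where no TOL mouse was. INT mice ran from 4.64 to 6.26 with a median of 5.41. The difference in Hspa1a was 2.35 (SE 1.01, nominal p = 0.0333, adjusted p = 0.457, exact permutation p = 0.147). Dnajb1, the Hsp40 partner of Hspa1a, was at 1.37 (adjusted p = 0.563), Hsp90aa1 at 0.79 (adjusted p = 0.566) and the constitutive Hspa8 at 0.12. Dnajb1 was 10.73, 10.25 and 9.77 in TOL mice 4, 7 and 11, and 6.41, 6.49 and 6.31 in TOL mice 3, 5 and 9, with INT mice at 6.27 to 8.09. When TOL mouse 11 was left out, the differences were 1.42 for Hspa1a, 1.08 for Dnajb1, 0.32 for Hsp90aa1 and 0.02 for Hspa8. Hsp90ab1 was not named by a probe here. The r of Hspa5 with Hspa1a was 0.434 over the 12 mice (permutation p = 0.155, rho = -0.0035 with permutation p = 0.992) and -0.182 without TOL mouse 11. Of the sarcoplasmic reticulum genes, 11 of 12 were tested, 7 higher and 4 lower, with the slow-fibre calcium pump Atp2a2 at -0.85 (SE 0.34, nominal p = 0.0226, adjusted p = 0.401, exact permutation p = 0.0844) and the junctional protein Jph1 at 0.25. The counts were 6 and 5 without TOL mouse 11, with Atp2a2 at -0.61. The r of Calr with the mean of the slow fibre markers, which averaged lower in TOL mice, was 0.462 (permutation p = 0.129, rho = 0.189 with permutation p = 0.550), and 0.0918 without TOL mouse 11.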

How the data were processed

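The arrays were read with GenomeStudio, as the submitters' processing notes name it, in a version not given in the sources used here. The authors deposited the mean intensity of every probe per array, linear and without background subtraction or normalization, next to the authors' detection p-value for it. A second table that the authors deposited gives processed intensity values of these arrays, also linear, in columns that were matched to the signals by title. Column medians were all 1.6, and 30.9% to 31.0% of values lay below 0. Sorted values were nearly the same in every column, as after background subtraction and quantile normalization, and the program is unknown. It served as an alternative only.

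In limma 3.58.1 (R 4.3.3), neqc was run with the detection p-values in place of control probes and an offset of 16, which gives quantile-normalized log2 values. Probes detected (p under 0.05) on 6 or more of 12 arrays were fitted with lmFit, TOL against INT, and moderated with eBayes (trend over intensity), with Benjamini-Hochberg adjustment over 15570 probes. They were also compared by an exact permutation test. A gene took its brightest tested probe, since 3083 genes had several. Symbols came from the platform annotation, in which 34885 probes have 1 symbol, 18 several and 10378 none, and 0 symbols had to be updated. Correlations used numpy 2.4.6, scipy 1.17.1 and pandas 2.3.3 in Python 3.11.15. Promoter windows are from RefSeq on GRCm38.p6.

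Groups came from the sample titles and source names. The description field says heat intolerant for all 12 mice and was not used. Mouse numbers occur in both labels, and the main comparison did not pair mice by them. The mice are the replicates, and their number limits the precision. The members and gene lists were chosen with earlier results of these data known. Named were all members, the 3 genes most like each member (10 for Hspa5), the cytosolic counterparts and cell type markers that moved with a member. From each list other than cell type markers the gene with the smallest p was named, mostly with others. Dnajb9, P4hb, Serpinh1 and Atf4 were named ahead of genes of their lists with a smaller p. Of those passed over, Dnajc10 (-0.13), Tmx4 (-0.11), Fkbp14 (-0.19) and Creb3 (-0.10) averaged lower in TOL. P4ha1 (0.21) and Creb3l2 (0.09) averaged higher. The fit was checked on simulated arrays. Alternatives covered background correction, scaling, the second table, filters, array weights, the methods' t-test, single mice, the mouse number and the probe of a gene. The miRNA arrays and protein assays of the study were not analysed here.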

Additional observations from a re-analysis of the deposited data

Results flagged for a closer look

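In 14 groups of 6 mice, 1 for each tested chaperone and label, 1 value stood far from the others by Dixon's ratio (gap to the nearest value over the range, at its 95% critical value), and in all 112 groups examined 13 did, where chance flags about 5% of groups. The chaperone was Pdia6, which was 4.711 in INT mouse 7, with the next INT mouse at 4.486. Myoz1, ranked most like Pdia6, was also highest among INT mice in INT mouse 7 (11.67, next 11.48), while TOL mice 9 and 11 were higher still (11.73 and 11.78). INT mouse 3 stood apart in 2 genes ranked most like Hspa5, Lsm4 (10.15, next 9.869) and Slc1a6 (4.563, next 4.266).

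TOL mouse 11 accounted for 9 of the 13. Its array had a mean correlation of 0.9732 with the others, against 0.9831 for the next TOL mouse. Among stress genes it stood above the other TOL mice in Hspa1b (7.746, next 5.479), Hsp90aa1 (7.726, next 5.499), Serpinh1 (11.59, next 9.808), Atf3 (7.266, next 5.217) and Asns (6.316, next 4.903). Among genes ranked most like a chaperone it stood above them in Wbp1l (10.58, next 9.367) and Mterf1b (5.783, next 5.348), both for Hspa5, and in Asap2 (4.672, next 4.378), for Pdia6. These genes were ranked on the same mice, and the part of that array in each result was not tested.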

How the results depend on the processing

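No member and no other ER gene passed at an adjusted p under 0.05 in any of the 11 other settings or without any 1 mouse. Calr averaged lower in TOL mice in all of them, from -0.81 with an RMA-type background to -0.19 without background correction (adjusted p 0.183 to 0.382), and from -0.54 to -0.37 when 1 mouse was left out (adjusted p 0.144 to 0.406). The count of members at a nominal p up to 0.05 was 2 with median scaling, 3 with no filter on dim probes and 2 with the replicate block, in which Pdia3 joined Calr. The third with no filter was Manf, which was detected on 1 of 12 arrays, so that its difference cannot be read. It was 1 to 2 when 1 mouse was left out, 2 without TOL mouse 3 or 7 or INT mouse 5 or 9. The count of other ER genes was 5 with no filter, 1 with array weights and 4 with the mean of the tested probes, and 0 to 3 when 1 mouse was left out (0 without INT mouse 11, 1 without TOL mouse 5, 9 or 11 or INT mouse 5, 7 or 9). The median SD of the members was 0.0835 with an offset of 50, 0.0638 without background correction, 0.395 with the RMA-type background and 0.234 with median scaling. It was 0.158 (without TOL mouse 11) to 0.223 when 1 mouse was left out. A larger offset draws dim values together by construction. The median r of the 21 pairs was 0.109 with label means removed and 0.313 with the replicate block, and -0.128 (without TOL mouse 4) to 0.133 (without INT mouse 11) when 1 mouse was left out.

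Pdia4 turned to -0.0001 without background correction and -0.0108 with array weights, and Pdia6 to 0.0359 with median scaling. Without 1 mouse Pdia4 ranged from -0.0413 to 0.0478 and Pdia6 from -0.0513 to 0.0344. The cause was not tested. Across same-numbered mice, deviations from the label means correlated at -0.007 to 0.148 and 0 mice correlated best with their own number. These correlations run over all tested probes and cannot show whether same-numbered mice shared a condition that moved fewer genes. That was not tested. With the mouse number as a block, Pdia3 had a nominal p of 0.0168 (adjusted p = 0.350) in limma. In that fit 50 of 9034 genes passed, against 49 without the block. The methods' t-test gave 15 (722 at a nominal p up to 0.05), detection on all 12 arrays 30 and no filter 48. Co-variation was not run with other filters, weights or tests. Hspa5, Sdf2l1, Pdia6 and Pdia4 lay close to background, which limits what fold these arrays can show for them.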
